A study of Mus musculus with 21 samples.

Results

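The 9 genes described here encode the potassium channels of mouse that open on intracellular calcium or sodium, together with a pair of their auxiliary subunits. They were taken by symbol from 52550 genes of the deposited count table, by a rule that is a list of gene names. *Kcnma1* encodes the pore of the large-conductance (BK) channel, and *Kcnmb2* and *Kcnmb4* encode its beta subunits. *Kcnn1*, *Kcnn2* and *Kcnn3* encode the small-conductance (SK) pores, *Kcnn4* encodes the intermediate-conductance (IK) pore, and *Kcnt1* and *Kcnt2* encode the sodium-activated channels Slack and Slick. RNA was sequenced from spiral ganglion neurons (SGNs), the primary auditory neurons that connect hair cells to the brainstem, at 5 ages (embryonic day E15.5 and postnatal days P1, P8, P14, P30), from hair cells (HCs) at P12 and from cochlear glial cells at P8, with 3 libraries per group and 21 in all. The labels give the strain as C57BL/6. Per the methods, SGNs were picked by hand from mice that carried ShhCre/+ with 1 copy of the Rosa26-CAG-loxp-stop-loxp-tdTomato reporter. HCs carried Atoh1-CreER and the same reporter, received tamoxifen at P0 and P1, and came from both cochlea and vestibular organs; the labels describe them as picked, whereas the methods describe sorting. Glial cells carried vGlut3-iCreER/+ and the reporter, received tamoxifen at P2 and P3, and were taken from tissue around the SGNs. Each library held 69 to 195 picked SGNs, 86 to 125 glial cells or 1200 HCs, so age and cell type comparisons are also comparisons of Cre line, cell number and isolation wherever these differ.

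BK channels respond to both depolarisation and calcium and give a fast outward current that helps end spikes, and their beta subunits shift calcium sensitivity, gating speed and inactivation. SK and IK channels ignore voltage, sense calcium through bound calmodulin and contribute to afterhyperpolarisations. In HCs, BK current speeds the receptor potential of inner HCs, and SK2, the product of *Kcnn2*, carries the inhibitory synaptic current that follows calcium entry through nicotinic receptors of alpha9 and alpha10 subunits. Slack and Slick open on sodium that enters during firing and set adaptation in neurons, including auditory ones.

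All the pore proteins share the potassium selectivity filter, and its coding sequence separates the sodium-activated channels from the calcium-activated ones among those shown. For 6 of the 7 pore genes (*Kcnn2* is not shown) a stretch of 45 bases around the filter was read from the GENCODE M21 transcripts, in the longest open reading frame of each gene, with the 3 filter codons in capitals. They encode glycine, tyrosine, glycine in *Kcnn1*, *Kcnn3*, *Kcnn4* and *Kcnma1* and glycine, phenylalanine, glycine in Slack and Slick.
*Kcnma1*: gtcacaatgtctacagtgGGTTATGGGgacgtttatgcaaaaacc
*Kcnn1*: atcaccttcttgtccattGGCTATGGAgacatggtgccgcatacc
*Kcnn3*: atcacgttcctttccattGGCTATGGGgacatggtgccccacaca
*Kcnn4*: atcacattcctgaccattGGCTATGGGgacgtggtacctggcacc
*Kcnt1*: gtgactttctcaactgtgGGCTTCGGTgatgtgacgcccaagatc
*Kcnt2*: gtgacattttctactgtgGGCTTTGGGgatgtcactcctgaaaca
The filter pattern was found once in each of these 6 reading frames and was not found in those of *Kcnmb2* and *Kcnmb4*, whose products are not pores. Across whole transcripts the genes were easily told apart by reads: only 1 of 36 pairs of members shared any stretch of 50 bases.

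Promoters are shown for a pair of members whose time courses differ, *Kcnn1*, highest at P1, and *Kcnt2*, measured almost only at E15.5 and P1 among the SGN ages. The 250 bases before the start were taken from RefSeq on GRCm38.p6, where 7 of the 9 members had an entry and *Kcnn2* and *Kcnt1* did not. Capitals mark the hexamer CAGCTG, a form of the E-box bound by basic helix-loop-helix factors.
*Kcnn1*, chr8:70863259-70863508, minus strand: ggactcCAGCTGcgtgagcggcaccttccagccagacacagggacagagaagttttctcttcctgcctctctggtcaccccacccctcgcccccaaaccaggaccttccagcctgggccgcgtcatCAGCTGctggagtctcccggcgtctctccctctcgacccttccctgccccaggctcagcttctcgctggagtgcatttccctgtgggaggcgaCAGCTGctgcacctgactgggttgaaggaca
*Kcnt2*, chr1:140245468-140245717, plus strand: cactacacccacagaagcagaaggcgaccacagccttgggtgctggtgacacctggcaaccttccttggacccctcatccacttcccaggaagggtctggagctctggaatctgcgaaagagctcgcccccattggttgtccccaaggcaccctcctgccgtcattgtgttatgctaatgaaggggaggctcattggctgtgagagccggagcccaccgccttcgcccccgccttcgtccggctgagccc
*Kcnn1* held CAGCTG at 3 places and was the only one of the 7 members with an entry to hold it. Of 32851 RefSeq promoters of this length, 13.0% held it at least once, and the share with 3 places was not taken. None of the other letters searched on both strands, GGGCGG (32.7% of promoters), TATAAA (12.4%), CACGTG (6.02%) and TGACGTCA (1.55%), was in the *Kcnn1* window, and none of the 5 motifs was in the *Kcnt2* window. GC content was 63.6% for *Kcnn1* and 61.6% for *Kcnt2*, against a median of 52.4% over all promoters.

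Libraries held between 10368240 and 37287489 counts on genes (median 20384100), and a count of 3, the limit that a count of 0 allows, equalled 0.0805 to 0.289 CPM, the count scaled to a fixed total per library; this limit covers counting error only. Levels are given as TPM, the count per deposited gene length scaled to a fixed sum, so that genes can be compared by length. The labels were set against markers of each cell type. The summed level of 7 SGN markers was 402 to 2748 TPM in SGN libraries, 44.3 to 60.1 TPM in HCs and 15.7 to 148 TPM in glia, and that of 5 HC markers was 2387 to 2810 TPM in HCs and at most 190 TPM elsewhere. The 5 Schwann and satellite glial markers summed to 5563 to 7915 TPM in glia, 486 to 989 TPM in P8 SGNs and 4.98 to 488 TPM in SGNs of the other ages. Markers of other cells stood out in several libraries. Glial replicate 1 had SGN markers at 148 TPM and outer HC markers at 318 TPM, against at most 34.3 and 26.9 TPM in the other two. P14 replicate 1 had HC markers at 190 TPM and outer HC markers at 564 TPM, against at most 41.2 and 45.8 TPM in the other P14 libraries. P30 replicate 1 had outer HC markers at 326 TPM, against 61.5 and 44.0 TPM. All P1 and P8 libraries were high for outer HC markers, at 396 to 459 TPM and 205 to 401 TPM. HC replicate 1 had glial markers at 202 TPM, against 36.2 and 45.4 TPM. The 4 red blood cell markers were at 178, 33.9, 29.7 and 17.995 TPM in replicate 1 of E15.5, P1, P8 and P30, and at most 5.49 TPM in the other 17 libraries. Nothing in the labels says whether replicates came from separate animals, so p-values measure the spread between these libraries, which may be technical.

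*Kcnma1* and *Kcnt1* were the leading members in SGNs, at 20.7 ± 7.84 TPM and 15.7 ± 11.3 TPM over the 15 SGN libraries (SD), followed by *Kcnmb2* at 7.59 ± 4.91 TPM. *Kcnn1* and *Kcnn2* averaged 3.57 ± 3.41 and 3.57 ± 3.09 TPM. *Kcnmb4* averaged 2.55 ± 3.27 TPM, and *Kcnt2*, *Kcnn3* and *Kcnn4* averaged 0.428, 0.166 and 0.0212 TPM. At P30 *Kcnma1* was higher than 91.3% of the genes detected in SGNs and *Kcnt1* higher than 82.4%. By CPM, which favours long genes, 7 of the 9 members kept their place in this order and *Kcnma1* stayed first.

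**Figure D1:**
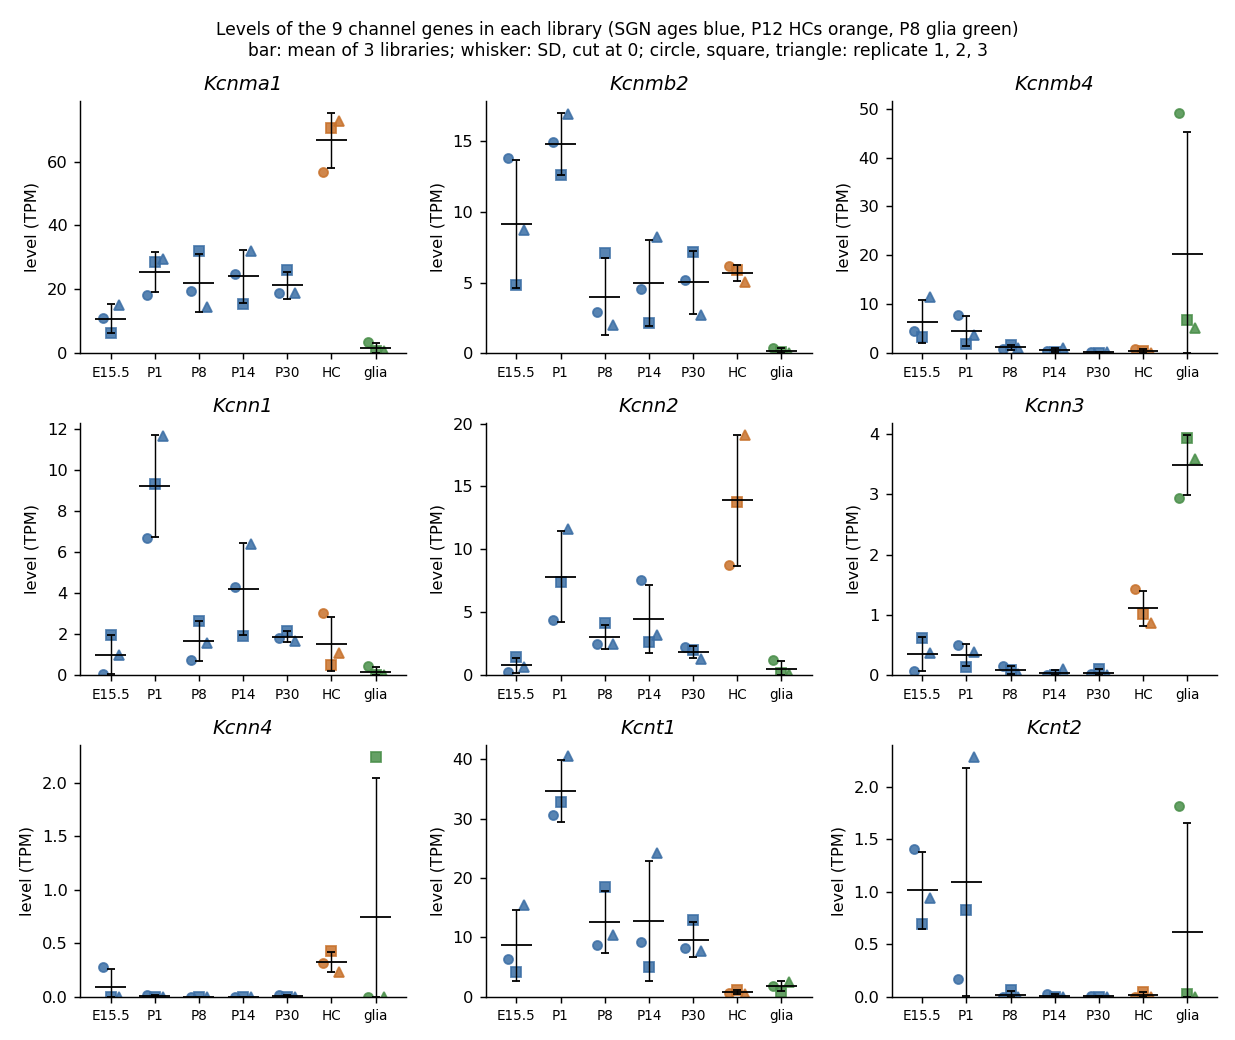
Level in TPM (vertical axis, from 0, a separate scale in each panel) of the 9 genes in each of 21 libraries, for SGNs at 5 ages (blue), P12 HCs (orange) and P8 glial cells (green); symbols mark replicates, bars the mean and whiskers the SD, cut at 0. By mean, *Kcnn1* and *Kcnt1* are highest at P1, *Kcnma1* and *Kcnn2* in HCs, and *Kcnmb4* and *Kcnn3* in glial cells, for *Kcnmb4* through glial replicate 1.

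Of the 9 members, 7 passed the filter on low counts among the SGN libraries, which asks that 1 age or more have CPM over 1 in each replicate; *Kcnn3* and *Kcnn4* did not, and *Kcnt2* passed through E15.5 alone. All 7 differed over the 5 ages (limma-voom F test, adjusted p under 0.05), where 43.9% of the 15113 genes tested did. A change between neighbouring ages was called at an adjusted p under 0.05 and over 2-fold. From E15.5 to P1, 3 of 7 rose and 0 fell, against 8.26% of all genes called, 5.08% up and 3.18% down. From P1 to P8, 4 of 7 fell and 0 rose, against 7.44% called, 4.29% up and 3.15% down. At P8 to P14 and P14 to P30 the count by limma was 0 of 7, against 0.536% and 0.0596% of all genes, with 0 members at an unadjusted p under 0.05 at either step and 0 by edgeR or DESeq2. Between E15.5 and P30, 1 of 7 rose and 2 fell, against 34.6% of all genes called, 18.4% up and 16.2% down. The difference of *Kcnt2* over the 5 ages and its fall from E15.5 are descriptions only, since the gene passed the filter through its high level at E15.5. It is still counted among the 7 that differed over the ages and the 2 that fell between E15.5 and P30. The members' median log2 fold change was 0.79 from E15.5 to P1 (0.070 for all genes), -1.49 from P1 to P8 (-0.009) and 0.45 from E15.5 to P30 (-0.006). The steps that share an age share its libraries. With library size as the only scaling the split of all calls moved: from E15.5 to P1 it was 569 higher and 649 lower (767 and 481 by TMM), from P1 to P8 it was 421 and 760 (648 and 476), from P8 to P14 it was 19 and 54 (38 and 43), and from E15.5 to P30 it was 1698 and 3973 (2778 and 2446). The members called at the 4 steps still numbered 7.

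*Kcnma1*, the BK pore (chr14:23289431-24014491, minus strand of GRCm38), was the only member called as higher at P30 than at E15.5. Its level in replicates 1, 2 and 3 was 10.9, 6.22 and 15.1 TPM at E15.5, 18.3, 28.6 and 29.6 TPM at P1, 19.4, 32.1 and 14.4 TPM at P8, 24.8, 15.51 and 31.9 TPM at P14, and 18.8, 26.1 and 18.9 TPM at P30. By TPM the E15.5 libraries lay below all those of P1, P14 and P30 and overlapped with P8, and the 4 postnatal ages overlapped with each other. By CPM the E15.5 libraries (128 to 169 CPM) lay below those of P8 (217 to 225 CPM) as well. The rise from E15.5 to P30 was 1.20 ± 0.23 on the log2 scale (SE), 2.3-fold, with an adjusted p of 0.000539 (limma-voom). The step to P1, 0.79 ± 0.23, had an adjusted p of 0.0353 but was 1.72-fold and so was not called. With library size as the only scaling, which moved the median of all genes by -0.48, the rise to P30 was 0.72 and under 2-fold. *Kcnma1* was higher in HCs by TPM. HC markers were at 12.6 to 29.9 TPM at E15.5, 53.0 to 129 TPM at P1 and 32.7 to 47.5 TPM at P30. Outer HC markers were at 1.64 to 152, 396 to 459 and 44.0 to 326 TPM at these ages. The part of both marker lists in the rise was not tested. Exons of *Kcnma1* overlap *4930519K11Rik* on the opposite strand.

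*Kcnmb2*, the inactivating BK beta2 subunit (chr3:31902507-32200180, plus strand), fell after P1. It measured 13.9, 4.86 and 8.70 TPM at E15.5 and 14.9, 12.6 and 17.0 TPM at P1, then 2.94, 7.08 and 1.96 TPM at P8, 4.57, 2.11 and 8.23 TPM at P14 and 5.15, 7.16 and 2.72 TPM at P30. Every P1 library was above every later SGN library. The step from P1 to P8 was -1.67 ± 0.33 (3.17-fold lower, adjusted p = 0.00386), and it was called under all 16 alternative settings. From E15.5 to P30 the difference was -0.62 ± 0.34 (adjusted p = 0.155), and with library size as the only scaling it was -1.12 (adjusted p = 0.0171).

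*Kcnmb4*, the BK beta4 subunit of neurons (chr10:116417861-116473878, minus strand), declined to near 0 in the maturing SGNs. Its level was 4.45, 3.32 and 11.5 TPM at E15.5, 7.79, 1.79 and 3.75 TPM at P1, 0.781, 1.69 and 0.959 TPM at P8, 0.474, 0.206 and 1.09 TPM at P14 and 0.165, 0.0541 and 0.200 TPM at P30. At P30 these were 14, 2 and 14 counts, and each P30 library was below every P14 library. No single step passed the test; the largest was P1 to P8 at -1.49 ± 0.64 (adjusted p = 0.15). Over the whole span the fall was -5.22 ± 1.00 (adjusted p = 0.000645), and it was called under all 16 alternatives. The mean of *Kcnmb4* was highest in glia, through replicate 1 (49.2 TPM). Glial replicates 2 and 3 (6.77 and 5.14 TPM) were within the range of E15.5 SGNs. Glial markers in SGN libraries were at 55.5 to 154 TPM at E15.5, 32.3 to 120 TPM at P1, 486 to 989 TPM at P8, 136 to 488 TPM at P14 and 4.98 to 85.4 TPM at P30. These markers rose from P1 to P8, where *Kcnmb4* was lower, and fell along with it later. Their part in the decline was not tested. Exons of *Kcnmb4* overlap 2 opposite-strand transcripts, *Kcnmb4os1* and *Kcnmb4os2*, and the strand setting of the counting is not given in the sources used here, so their reads cannot be told apart.

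Relative to the pore transcript, the beta subunits went from high to low. The ratio *Kcnmb2*/*Kcnma1* in TPM was 0.874 ± 0.356 at E15.5 (SD, n = 3) and 0.611 ± 0.191 at P1. It was 0.170 ± 0.0451, 0.193 ± 0.0612 and 0.231 ± 0.0753 in P8, P14 and P30 libraries. All 6 ratios at E15.5 and P1 were above all 9 later ones. The ratio *Kcnmb4*/*Kcnma1* was 0.568 ± 0.179 at E15.5 and 0.00715 ± 0.00449 at P30. *Lrrc55*, a leucine-rich repeat protein known as a BK gamma subunit that eases channel opening, was above the pore by TPM in each SGN library but P1 replicate 2 (0.673). By CPM, which does not divide by gene length, its mean over the SGN libraries was below that of the pore (76.3 against 212 CPM). Its ratio to *Kcnma1* was 2.21 ± 0.607 at E15.5 and 1.40 ± 0.389 at P30, and libraries of these ages overlapped.

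**Figure D2:**
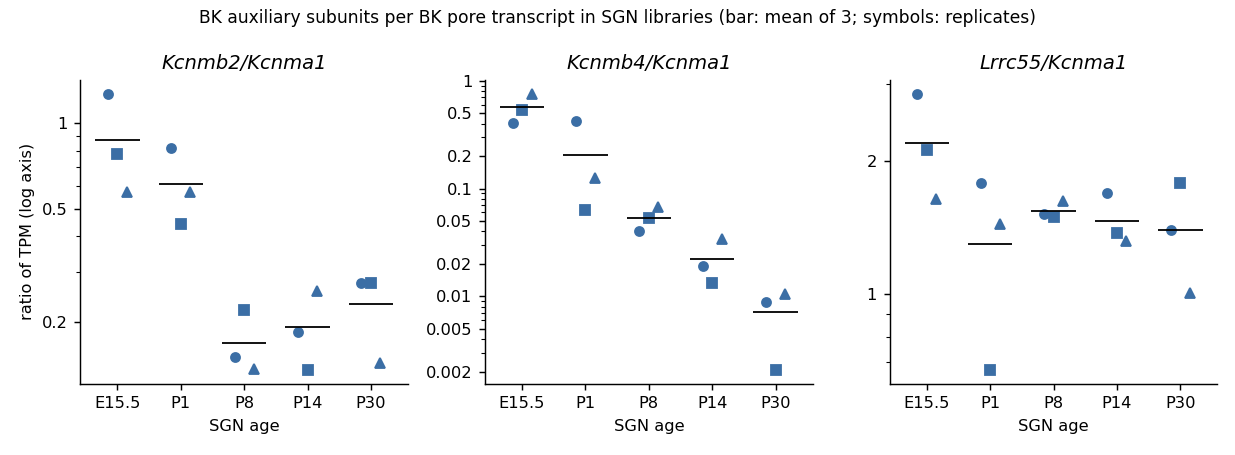
Ratio of TPM of an auxiliary BK subunit to the pore gene *Kcnma1* (vertical log axis, a separate scale in each panel) in the 15 SGN libraries by age; symbols mark replicates and bars the mean of 3. *Kcnmb2*/*Kcnma1* drops between P1 and P8, *Kcnmb4*/*Kcnma1* goes from 0.568 at E15.5 to 0.00715 at P30, and *Lrrc55*/*Kcnma1* stays between 0.673 and 2.85.

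*Kcnn1*, the SK1 pore (chr8:70842049-70863258, minus strand), had its highest levels at P1. It measured 0.0451, 1.94 and 0.992 TPM at E15.5, 6.65, 9.30 and 11.7 TPM at P1, 0.736, 2.65 and 1.54 TPM at P8, 4.29, 1.88 and 6.37 TPM at P14 and 1.78, 2.16 and 1.64 TPM at P30. Every P1 library exceeded every other SGN library; P14 replicate 3 came nearest. The rise from E15.5 was 3.51 ± 0.85 (11.4-fold, adjusted p = 0.0156), from counts as low as 2 in E15.5 replicate 1, and the fall to P8 was -2.21 ± 0.56 (4.64-fold, adjusted p = 0.0163). The edgeR test gave adjusted p values of 0.0852 and 0.164. The rise was also lost with sample quality weights (adjusted p = 0.0626), and the fall was also lost without P8 replicate 1 (0.0798) or 2 (0.0536) and with all 21 libraries in the fit (0.0575). Over the 5 ages together edgeR gave 0.104, while the other 23 alternatives called the gene. Its exons overlap *A230052G05Rik* on the opposite strand.

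*Kcnn2*, the SK2 pore (chr18:45268860-45686024, plus strand), rose with *Kcnn1* from E15.5 to P1. Its values were 0.226, 1.39 and 0.669 TPM at E15.5, 4.40, 7.40 and 11.6 TPM at P1, 2.50, 4.12 and 2.50 TPM at P8, 7.55, 2.66 and 3.15 TPM at P14 and 2.19, 1.95 and 1.28 TPM at P30. Each P1 library was above each at E15.5, P8 and P30, and overlapped with P14. The rise was 2.92 ± 0.69 (7.59-fold, adjusted p = 0.013) and was lost without E15.5 replicate 3 (adjusted p = 0.0597) and with sample quality weights (0.0595). The later step to P8, -0.82 ± 0.39, did not pass (adjusted p = 0.192). Markers of HCs, in which *Kcnn2* was higher by TPM, moved with it. Their sum was 12.6 to 29.9 TPM at E15.5 and 53.0 to 129 TPM at P1, and outer HC markers were at 1.64 to 152 and 396 to 459 TPM. P14 replicate 1, the highest P14 library for *Kcnn2*, was also the highest for both marker lists. Their part in the result was not tested. Exons of *Kcnn2* overlap 2 opposite-strand transcripts, *A330093E20Rik* and *AC121957.1*.

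*Kcnn3* and *Kcnn4* were barely detected in SGNs. *Kcnn3*, the SK3 pore (chr3:89520164-89675132), reached 0.615 TPM in E15.5 replicate 2 and 0.493 TPM in P1 replicate 1, and from P14 on no library exceeded 0.103 TPM, or 12 counts. *Kcnn4*, the IK pore typical of blood and epithelial cells (chr7:24370263-24386690), had 14 counts in E15.5 replicate 1, 2 counts each in replicate 1 of P1 and of P30, and 0 counts in the other 12 SGN libraries. Red blood cell markers were at 178, 33.9 and 17.995 TPM in these 3 libraries and at most 2.27 TPM in the others of the same ages, while P8 replicate 1, at 29.7 TPM, had 0 counts of *Kcnn4*; their part was not tested.

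*Kcnt1*, the Slack pore (chr2:25863734-25918273, plus strand), was the most abundant of the 9 genes at P1 by TPM. By CPM it was below *Kcnma1* there, at a mean of 177 against 234 CPM. It measured 6.31, 4.19 and 15.51 TPM at E15.5, 30.6, 32.8 and 40.5 TPM at P1, 8.72, 18.6 and 10.5 TPM at P8, 9.27, 4.94 and 24.1 TPM at P14 and 8.18, 13.0 and 7.70 TPM at P30. Every P1 library was above every other SGN library, and the other 4 ages overlapped. It rose by 1.68 ± 0.30 from E15.5 to P1 (3.21-fold, adjusted p = 0.00277), a call that held under all 16 alternatives. The fall to P8 was -1.11 ± 0.26 (2.16-fold, adjusted p = 0.0108), with adjusted p values of 0.0718 in edgeR and 0.0516 without P8 replicate 1. From E15.5 to P30 the difference was 0.45 ± 0.33 (adjusted p = 0.292). No other annotated exon overlaps those of *Kcnt1*.

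*Kcnt2*, the Slick pore (chr1:140246158-140612067, plus strand), was measured at E15.5 and P1 and then hardly at all. Its levels were 1.41, 0.690 and 0.939 TPM at E15.5 and 0.168, 0.825 and 2.29 TPM at P1. At P8 only replicate 2 had any count (6), at P14 and P30 only replicate 1 had any (2 each), and the other libraries of these ages were at 0. Its mean at E15.5, 5.77 CPM, was 49.9-fold the level of 3 counts per library at P30 and 43.7-fold that level at P14. These are no strict bounds, since replicate 1 of each of these ages had 2 counts and not 0. The fall from P1 to P8 was called (adjusted p = 0.0179), at mean levels of 3.67 and 0.0608 CPM. Without P8 replicate 1 or 3 it had adjusted p values of 0.0865 and 0.0857. Of the 4 falls at this step, *Kcnmb2* alone remained called without P8 replicate 1. Exons of *Kcnt2* overlap *4930590L20Rik* on the opposite strand.

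**Figure D3:**
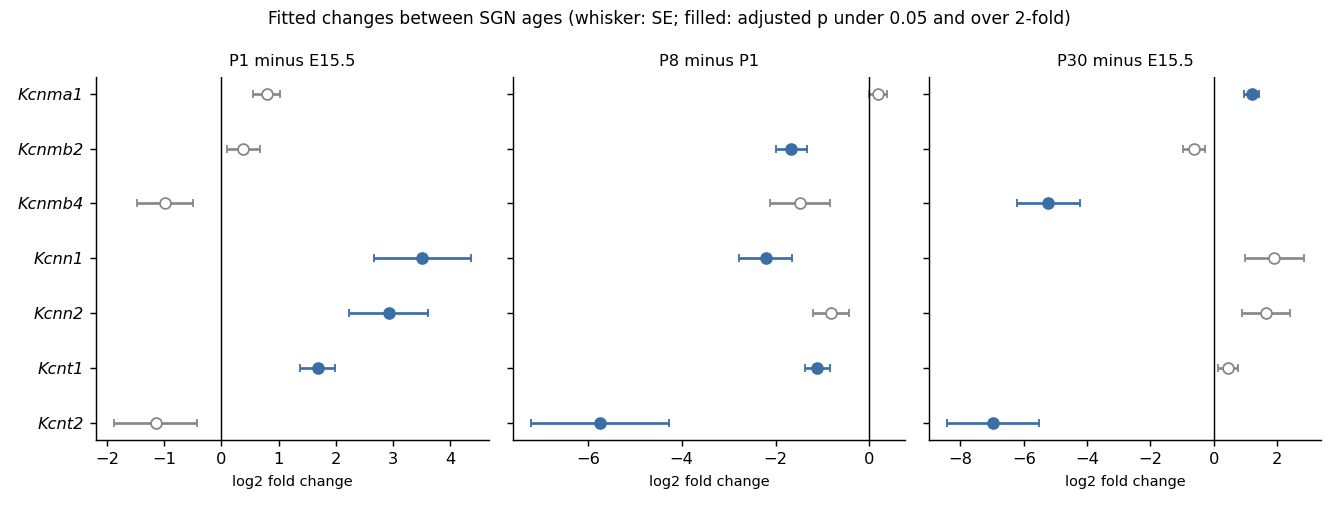
Fitted log2 fold change (horizontal axis, a separate scale in each panel) of the 7 members tested, for P1 minus E15.5, P8 minus P1 and P30 minus E15.5; whiskers are the SE and filled symbols passed both thresholds. *Kcnn1*, *Kcnn2* and *Kcnt1* rose to P1, 4 members fell to P8, and *Kcnma1* is the filled symbol above 0 between E15.5 and P30; the size of the *Kcnt2* falls rests on counts near 0 and is no bound.

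Summed over the 9 genes, channel transcripts stood at 38.2 ± 15.3 TPM at E15.5, 97.8 ± 17.1 TPM at P1, 44.5 ± 19.0 TPM at P8, 51.1 ± 23.9 TPM at P14 and 39.7 ± 9.54 TPM at P30 (SD, n = 3 each). All P1 libraries (83.3 to 117 TPM) lay above all other SGN libraries (23.2 to 75.0 TPM). The make-up also changed. The BK pore took 28.0 ± 1.15% of the sum at E15.5 and 53.9 ± 3.77% at P30, without overlap, whereas the beta subunits went from 40.5 ± 7.22% to 12.6 ± 3.16%. Slack and Slick together took 36.5 ± 0.479% at P1, above each of the other SGN libraries (18.1% to 32.9%), and SK and IK genes took 17.4 ± 3.24% at P1 and 9.45 ± 1.38% at P30. In bulk samples, fewer cells that express a gene and less RNA per cell cannot be told apart.

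**Figure D4:**
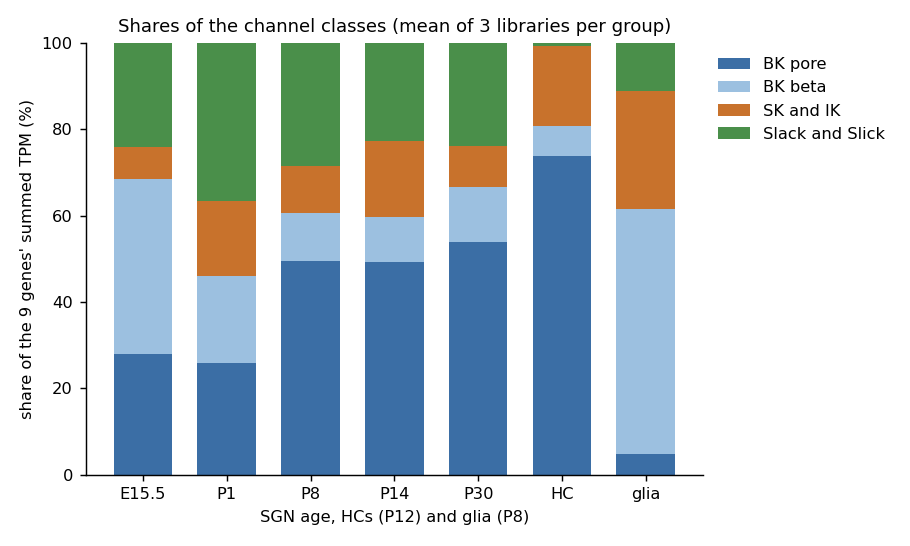
Share of the 9 genes' summed TPM (vertical axis, percent) taken by the BK pore gene, the BK beta genes, the SK and IK genes, and Slack with Slick, as the mean of 3 libraries per group. The BK pore share is 28.0% at E15.5, 53.9% at P30 and 73.8% in HCs, and Slack and Slick go from 36.5% at P1 to 0.839% in HCs.

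Across the 15 SGN libraries, *Kcnn1* and *Kcnn2* were the most alike pair of members (Pearson r = 0.87 of log2(TPM + 1)), followed by *Kcnn1* and *Kcnt1* (0.78) and by *Kcnma1* and *Kcnt1* (0.71). *Kcnmb4* and *Kcnma1* had r = -0.28. Among 8242 genes with an age mean of at least 10 TPM, those most like *Kcnn1* were *Tspyl5*, *Tmem136* and *Rtl1* (0.856, 0.849 and 0.844), those most like *Kcnn2* were *Tmprss3*, *Cadm2* and *Sez6* (0.934, 0.901 and 0.899), and those most like *Kcnma1* were *Inpp5f*, *Eif3j1* and *Calm2* (0.975, 0.966 and 0.964). For *Kcnmb2* they were *Tent4b*, *Hivep1* and *Atxn2l* (0.944, 0.944 and 0.935), and for *Kcnmb4* they were *Unc5b*, *Ephb2* and *Mex3b* (0.946, 0.944 and 0.941). For *Kcnt1* they were *Zfp521*, *Prkaa2* and *Gm10020* (0.934, 0.920 and 0.919), and for *Kcnt2* *Gm34727*, *Lcor* and *Glipr2* (0.912, 0.898 and 0.895). These coefficients describe libraries that share a TPM scaling factor, which itself varied: at P14 *Kcnma1* was highest by TPM in replicate 3 but highest by CPM in replicate 2 (257 CPM against 217).

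Cell types were compared in a fit of all 21 libraries and 17531 genes, where 8 members passed the filter (*Kcnn3* through HCs and glia; *Kcnn4* did not), and a difference was called at an adjusted p under 0.01 and over 4-fold. Between the mean of the SGN ages and HCs, 1 of 8 members was higher and 1 lower in SGNs, against 26.8% of all genes called, 10.5% higher and 16.2% lower. Between P14 SGNs, the nearest age, and P12 HCs, it was again 1 higher and 1 lower, against 23.1% called, 10.9% higher and 12.2% lower. Between SGNs and glial cells, 5 of 8 were higher and 2 lower in SGNs, against 24.7% called, 14.3% higher and 10.4% lower. At P8, the age of the glial cells, the same 7 genes were called in the same directions, against 20.9% called, 13.4% higher and 7.53% lower. The members' median log2 difference was 1.81 for SGNs minus HCs (0.019 for all genes) and 2.66 for SGNs minus glia (0.218). The comparisons share SGN libraries. The lower level of *Kcnn3* in SGNs, counted in each comparison, is a description only, since the gene passed the filter through HCs and glia. With library size as the only scaling, calls over all genes were 1331 higher and 3786 lower for SGNs against HCs (1847 and 2847 by TMM) and 1229 and 3325 for P14 SGNs against HCs (1910 and 2136).

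*Kcnt1* separated SGNs from HCs most clearly. HCs measured 0.660, 1.10 and 0.445 TPM, below every SGN library (lowest 4.19, median 10.5, highest 40.5 TPM). The difference was 5.44 ± 0.74 on the log2 scale (43.5-fold, adjusted p = 2.42e-06), and 5.07 ± 0.77 for P14 SGNs alone (adjusted p = 1.84e-05). It was called under all 27 and all 15 alternatives of these comparisons. *Kcnn3* went the other way: HCs measured 1.43, 1.02 and 0.866 TPM (74, 68 and 60 counts), above every SGN library, with a difference of -2.98 ± 0.79 (adjusted p = 0.00326). That call was lost in edgeR (adjusted p = 0.028), in DESeq2 (0.0115) and without HC replicate 1 (0.0247) or 2 (0.0149). HC replicate 1, the highest of the 3, also had the most glial markers, and *Kcnn3* was highest in glia; the part of those markers was not tested. For P14 SGNs it was -5.55 ± 1.27 (adjusted p = 0.00125), at 0, 0 and 8 counts in the P14 libraries, and without P14 replicate 1, the one with high HC markers, the adjusted p was 0.0119.

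*Kcnma1* and *Kcnn2* had higher TPM in HCs without reaching the thresholds. *Kcnma1* measured 56.9, 70.6 and 72.6 TPM in HCs, above all SGN libraries (highest 32.1 TPM). The fitted difference, SGNs minus HCs, was -0.53 ± 0.17 (adjusted p = 0.0149) by TMM and -1.08 with library size as the only scaling, which moved the median of all genes by -0.55. The difference of mean log2(TPM + 1) was -1.74, so its size depended on the scaling, while it was below 0 in every setting tried. *Kcnn2* measured 8.75, 13.8 and 19.1 TPM in HCs, above all SGN libraries except P1 replicate 3 (11.6 TPM), with a fitted difference of -1.16 ± 0.37 (adjusted p = 0.0118). For P14 SGNs alone, the nearest age, the limma-voom difference from HCs was smaller for both genes. It was -0.33 ± 0.23 for *Kcnma1* (adjusted p = 0.264) and -0.50 ± 0.48 for *Kcnn2* (adjusted p = 0.423). *Kcnmb2* was at 6.14, 5.90 and 5.06 TPM in HCs, within its range in SGNs. *Kcnn1* was at 3.00, 0.477 and 1.05 TPM there and *Kcnmb4* at 0.791, 0.423 and 0 TPM. Their fitted differences, 2.22 ± 0.90 and 3.77 ± 1.35, had adjusted p values of 0.0432 and 0.0235. *Kcnn4* had 8, 14 and 8 counts in HCs (0.236 to 0.428 TPM), and *Kcnt2* had 2 counts in 1 of 3 HC libraries.

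In HCs *Kcnma1* took 73.8 ± 1.32% of the 9 genes' TPM, the *Kcnmb2*/*Kcnma1* ratio was 0.0871 ± 0.0193, and *Lrrc55* was near 0 (0.396, 0.268 and 0.222 TPM, against 13.2 to 47.9 TPM in SGNs). *Lrrc52*, another known BK gamma subunit, was at 25.3, 27.9 and 35.6 TPM in HCs. In SGNs it was between 0 and 14.9 TPM in 14 of 15 libraries and 25.5 TPM in P14 replicate 1, the library with the highest HC markers.

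In glial cells the set looked different again. *Kcnmb4* measured 49.2, 6.77 and 5.14 TPM and *Kcnn3* 2.94, 3.93 and 3.59 TPM there. Each glial library exceeded each P8 SGN library for both genes; for *Kcnmb4* the glial range overlapped with SGNs of E15.5 and P1. SGNs minus glia gave -4.12 ± 0.61 for *Kcnmb4* (17.4-fold, adjusted p = 1.13e-05) and -6.30 ± 0.55 for *Kcnn3* (78.9-fold, adjusted p = 8.57e-09). Both were called under all 27 alternatives, and at P8 under all 15. As *Kcnn3* passed the filter through HCs and glia, where it was high, its differences are a description only. Since *Kcnma1* was low in glia (3.57, 0.539 and 0.544 TPM), the *Kcnmb4*/*Kcnma1* ratio was 11.9 ± 2.23 there, against 0.0532 ± 0.0133 in P8 SGNs. The highest glial value of *Kcnmb4* came from replicate 1, and replicates 2 and 3 alone were above every SGN library from P8 on.

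*Kcnma1* and *Kcnmb2* were higher in SGNs than in glia by 3.59 ± 0.52 (adjusted p = 8.76e-06) and 5.82 ± 0.76 (adjusted p = 2.29e-06), under all 27 alternatives. *Kcnmb2* had 19, 2 and 0 counts in glia. *Kcnt1* was at 1.87, 0.882 and 2.52 TPM in glia, below every SGN library, with a difference of 2.55 ± 0.48 (5.86-fold, adjusted p = 0.000184). It was lost with sample quality weights alone (adjusted p = 0.0159). *Kcnn1* had 32, 0 and 0 counts in glia and a difference of 5.37 ± 1.16 (adjusted p = 0.000637), lost without glial replicate 2 (0.0143) or 3 (0.0138), in edgeR (0.0125) and with the weights (0.0544). *Kcnn2* had 138, 13 and 5 counts in glia and stood at the edge of the threshold: its difference of 2.76 ± 0.84 had an adjusted p of 0.00994, and 21 of 27 alternatives put it between 0.0106 and 0.17. For *Kcnma1*, *Kcnmb2*, *Kcnn1* and *Kcnn2* glial replicate 1, the library with the most SGN and outer HC markers, was the highest of the 3, and the part of those markers in these values was not tested. Without this library 7 members were called in each glial comparison, and without replicate 2 or 3 there were 5.

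*Kcnt2* and *Kcnn4* were each measured in a single glial library. *Kcnt2* had 203 counts (1.82 TPM) in replicate 1 and 2 and 0 counts in the others, and *Kcnn4* had 118 counts (2.25 TPM) in replicate 2 and 0 in the others. No difference was called for *Kcnt2* between SGNs and glia (-1.13 ± 1.19, adjusted p = 0.453); edgeR called it at -3.71 (adjusted p = 0.00539).

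**Figure D5:**
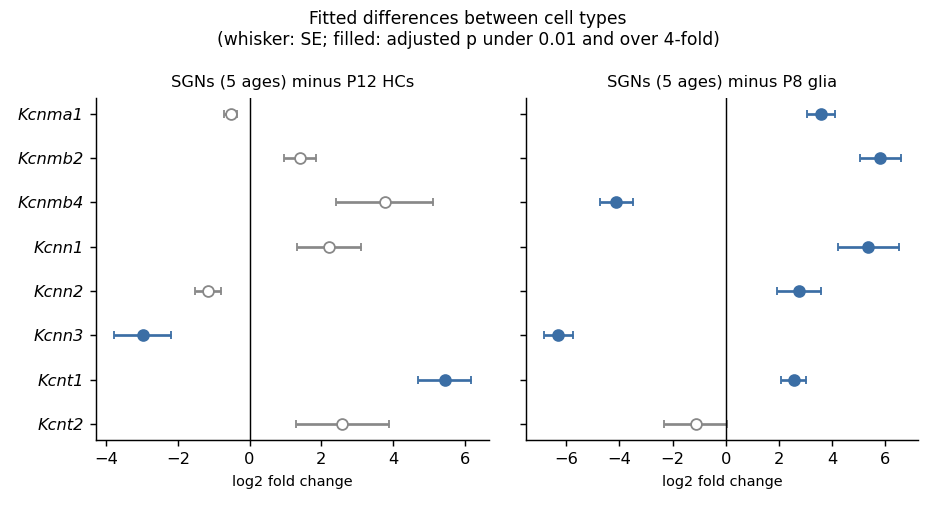
Fitted log2 difference (horizontal axis, a separate scale in each panel) of the 8 members tested between SGNs of 5 ages and P12 HCs (left) or P8 glial cells (right); whiskers are the SE and filled symbols passed both thresholds. *Kcnt1* is filled above 0 in both panels and *Kcnn3* below 0 in both, and *Kcnmb4* is filled below 0 against glia only.

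The order of the groups summarised each gene. *Kcnma1* ran from HCs to the postnatal SGNs, E15.5 and glia, with no overlap between HCs, P1, E15.5 and glia. *Kcnn3* ran from glia to HCs to SGNs, without overlap between the first 3 places. *Kcnt1* was highest at P1, then came the other SGN ages, which overlapped, and then glia and HCs, which overlapped with each other. *Kcnn2* was highest in HCs, and its P8 libraries lay above those of P30, E15.5 and glia. For *Kcnt2* and *Kcnn4* no pair of neighbours in the order was free of overlap.

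A list of 16 other subunits and binding partners was counted beside the members, 12 of which were tested. Over the 5 ages 7 of 12 differed, against 43.9% of all genes. From E15.5 to P1 2 of 12 rose (5.08% of all genes did), led by *Calm2*, which encodes calmodulin, the calcium sensor bound to SK and IK channels, by 1.32 ± 0.18 (adjusted p = 0.000361). From P1 to P8 1 of 12 rose (4.29% of all genes did), *Actn2*, an actinin that binds SK2, by 2.12 ± 0.63 (adjusted p = 0.0384). No partner was called at P8 to P14 or P14 to P30 by limma (0.536% and 0.0596% of all genes were), with 3 and 0 at an unadjusted p under 0.05. Between E15.5 and P30 6 of 12 rose and 0 fell, against 18.4% and 16.2% of all genes, led by *Actn2* (4.82 ± 0.91) and *Lrrc52* (4.74 ± 1.52). *Lrrc52* passed the filter through P14 and P30, where it was high, so its rise and its difference over the ages, both counted here, are descriptions only. It averaged 0.332 TPM at E15.5, 5.87 TPM at P30 and 29.6 TPM in HCs. HC markers were at 12.6 to 29.9 TPM at E15.5 and 32.7 to 47.5 TPM at P30, and their part in the rise was not tested. Against HCs 3 were higher in SGNs (10.5% of all genes were), *Lrrc55* (7.85 ± 0.79), *Actn2* (6.35 ± 1.01) and *Calm3* (2.30 ± 0.24), and *Lrrc52* was lower (-2.48 ± 0.58), where 16.2% of all genes were. Against glia 5 were higher in SGNs (14.3% of all genes were), led by *Lrrc55* (4.91 ± 0.64), *Actn2* (3.68 ± 0.94) and *Calm3* (2.93 ± 0.33). With the nearest age alone it was 3 higher in P14 SGNs than in HCs (10.9% of all genes were) and 5 higher in P8 SGNs than in glia (13.4%). The same 3 genes led. The list's median was 0.88 between E15.5 and P30, 0.61 against HCs and 1.80 against glia, where the medians of all genes were -0.006, 0.019 and 0.218.

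A second list held 19 channels and receptors that bring calcium or sodium into the cytosol, 18 of them tested. Over the 5 ages 11 of 18 differed, against 43.9% of all genes. From E15.5 to P1 5 rose and 1 fell, against 5.08% and 3.18% of all genes, and the 3 largest were *Chrna9* (3.77 ± 1.13), *Scn1a* (3.37 ± 0.45) and *Chrna10* (2.80 ± 0.86). The nicotinic subunit genes *Chrna9* and *Chrna10* were higher in HCs, at 134 and 190 TPM against 4.21 and 7.34 TPM at P1, where HC markers had risen as well. The part of those markers in the 2 rises was not tested. From P1 to P8 3 rose and 5 fell, against 4.29% and 3.15% of all genes, led by *Cacna1h* (-2.21 ± 0.44), *Cacna1e* (-2.15 ± 0.29) and *Itpr3* (1.82 ± 0.54). *Itpr3* was at 64.0 TPM in glia, 1.98 TPM at P1 and 5.18 TPM at P8, and glial markers were at 32.3 to 120 TPM at P1 and 486 to 989 TPM at P8; their part was not tested. *Cacna1e*, the R-type calcium channel, fell again to P14 (-2.02 ± 0.45, adjusted p = 0.0465), and no other was called by limma at the last 2 steps. Of all genes, 0.536% and 0.0596% were called at these steps, and 8 and 2 of the list had an unadjusted p under 0.05. Between E15.5 and P30 3 rose and 3 fell, a share of the 18 close to the 34.6% of all genes called, and *Cacna1e* (-7.93 ± 0.75), *Scn1a* (5.00 ± 0.44) and the T-type calcium channel *Cacna1h* (-3.97 ± 0.64) led. Among the sodium channels, *Scn1a* went from 1.91 TPM at E15.5 to 57.4 TPM at P30 and *Scn8a* from 7.92 to 77.2 TPM, while *Kcnt1* was at 8.67 and 9.62 TPM.

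Against HCs, 9 of these genes were higher in SGNs and 4 lower, where 10.5% and 16.2% of all genes were, led by *Scn1a* (10.38 ± 1.51), *Cacna1h* (5.95 ± 1.29) and *Cacna1c* (5.63 ± 0.81). For P14 SGNs against HCs it was 8 higher and 4 lower, where 10.9% and 12.2% of all genes were, led by *Scn1a* (11.57 ± 1.52), *Cacna1c* (5.22 ± 0.85) and *Chrna10* (-5.06 ± 0.58). Against glia 8 were higher and 1 lower, where 14.3% and 10.4% of all genes were, led by *Itpr3* (-6.26 ± 0.32), an inositol trisphosphate receptor of the endoplasmic reticulum, *Cacna1b* (6.25 ± 0.86) and *Scn2a* (5.32 ± 0.81). At P8 7 were higher and 1 lower, where 13.4% and 7.53% of all genes were, led by *Cacna1b* (6.00 ± 0.88), *Scn2a* (5.21 ± 0.83) and *Scn1a* (5.04 ± 0.78). The medians of this list were 2.25 against HCs and 1.70 against glia, with 0.019 and 0.218 for all genes.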

How the data were processed

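The 21 libraries were amplified with Ovation RNA-Seq V2. Per the methods and the submitters' processing notes, the authors aligned reads to mm10 with STAR 2.4.0i and counted them per gene with featureCounts; strand, multimapping and pair settings are not given in the sources used here. The deposited table holds whole-number counts without normalization, and a median of 67.9% of counts from 1 to 20 were even. Symbols and positions came from GENCODE M21 (GRCm38), which named 52403 of 52550 genes.

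TPM and CPM were computed from these counts. Counts were filtered (kept where each replicate of some group had CPM over 1), scaled by TMM (edgeR 4.0.16) and fitted with limma-voom (limma 3.58.1, R 4.3.3) with group means only, in 15 SGN libraries for ages and all 21 for cell types. Tests were two-sided with Benjamini-Hochberg adjustment over all genes. The fit was tested on simulated data. DESeq2 1.42.0 and edgeR's quasi-likelihood test were alternatives.

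Members and lists were chosen with earlier results of these data known. All 9 members are named; from the partner and ion source lists, at most 3 called genes per comparison by size of change, of which 1 gene's values are not reported here; and the 3 genes most like each member that differed over the ages. *Lrrc55*, *Lrrc52* and *Scn8a* are also named with levels chosen after their values were seen, as are the genes that overlap members.

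Libraries of the same replicate number at P14 and P30, and at P8 and P30, deviated together from their age means (r over 0.1 in all 3 pairs), and those of no other pair of groups did in all 3; adding the replicate number changed no member's call between ages.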

Additional observations from a re-analysis of the deposited data

How the results depend on the processing

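Of 28 called member differences, 14 held under every alternative tried and none reversed under any; of 39 uncalled ones, 30 were never called. Counts of called members moved by more than 1.5 times as follows. With edgeR's quasi-likelihood test they were 4 over the 4 transitions (7 by limma-voom), 1 for SGNs against HCs and 1 for P14 SGNs against HCs (2 each by limma-voom). With sample quality weights they were 4 for SGNs against HCs (2), 4 for SGNs against glia (7) and 4 for P8 SGNs against glia (7). Leaving out 1 library gave 4 to 7 over the transitions (4 without P8 replicate 1), 3 to 5 between E15.5 and P30 (5 without E15.5 replicate 2, when *Kcnn1* and *Kcnn2* were called as higher at P30), 6 to 8 over the 5 ages, 1 to 3 for SGNs against HCs (1 without HC replicate 1 or 2), 1 to 2 for P14 SGNs against HCs (1 without P14 replicate 1 or 2), 5 to 7 for SGNs against glia and 5 to 7 for P8 SGNs against glia. The cause was not tested. With the replicate number as a block, the counts were 7 over the transitions, 3 between E15.5 and P30, 7 over the 5 ages, 2 and 2 against HCs, and 6 and 6 against glia, where *Kcnn2* was lost (adjusted p = 0.0127 in both). DESeq2 called *Kcnmb4* higher in SGNs than HCs (2.63, adjusted p = 0.000858). Another scaling moved the median of all genes by up to -0.71 (library size, P14 SGNs minus HCs). Levels under the limit of 3 counts, such as *Kcnn4* in most SGN libraries, are not detectable at this depth.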
